A study of Gallus gallus with 2 samples.

Results

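The genes described here are the Wnt ligands, receptors and transducers measured in chicken breast muscle, together with the secreted inhibitors of the ligands. They were chosen by gene symbol and not by their values, and 47 of the 15073 listed genes carry such a symbol. Breast muscle of Xichuan black-bone chickens, a breed whose meat, skin and bones are black, was sampled at 12 weeks of age. Test group IV received the basal diet with 0.8% added tyrosine, the amino acid from which melanin is made, and the control group received the basal diet alone. Each library was made from the pooled RNA of 3 birds of the group, which were fasted before sampling. The age, the breed and the fasting were shared by both groups. With 1 library per group, none of the differences below has a replicate check, no P-value is given for the diets, and the difference between the diets cannot be told apart from the difference between the pools.

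Wnt proteins are secreted ligands that bind Frizzled receptors on neighbouring cells. When a Frizzled and the co-receptors LRP5 or LRP6 are engaged together, Dishevelled (DVL) stops a destruction complex of Axin, APC, GSK3 and casein kinase 1 from marking β-catenin (CTNNB1) for degradation, and β-catenin then joins transcription factors of the TCF/LEF family on its target genes. Other Wnts act without β-catenin, in part through the receptors ROR1 and ROR2. Many secreted proteins of the SFRP, DKK and WIF families limit the signal outside the cell. AXIN2 and NKD1 limit it inside the cell and are themselves switched on by it. In skeletal muscle the pathway is known for its part in the formation and regeneration of fibres, and in pigment cells for its part in their specification.

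The counts summed to 14318101 fragments in test group IV and 13135159 in the control group, and the 47 Wnt genes took 0.0971% and 0.0977% of them. Levels are given as FPKM, in which fragments are divided by transcript length and library depth, so that levels of different genes can be set side by side. A ratio is the FPKM of test group IV over that of the control group, given on the log2 scale. Each has a 95% Clopper-Pearson interval, calculated from the fragment counts as if each fragment were independent. It covers counting error but not how far birds, pools or preparations of a library differ. Copies made by PCR were counted as well, so it may be too narrow. No listed gene was without a fragment in the control group, and any gene first seen in test group IV was not analysed here. Because of this restriction, genes with few fragments lean towards lower values in test group IV. Another 17 chicken symbols of the same families, such as LEF1, DVL2, WNT3A and WNT7A, were not found among the listed names and were not analysed here. Of the 15073 listed genes, 5006 carried no symbol. Wnt genes and markers not found by name, here and below, may therefore be among the unnamed genes.

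The Wnt genes were present at similar levels in both libraries. Of the 47 genes, 28 reached 1 FPKM in 1 or both libraries. Among these, test group IV had the higher value for 15 and the lower value for 13, whereas it had the higher value for 60.6% of all genes at these levels. Their median log2 ratio was 0.07 with 0.1 added to each FPKM, beside 0.09 for all 11010 genes that passed the same filter. After median ratio scaling of the libraries the median of the Wnt genes was -0.02, so that its sign depends on the scaling. LRP6 was the 1 Wnt gene that was at least 2-fold lower, where 3.31% of all genes passed this limit. It no longer passed with the same 0.1 added to each FPKM, at a log2 ratio of -0.99. A value at least 2-fold higher was reached by 0 of the 28 genes, against 3.10% of all genes. At a limit of 1.5-fold, AXIN2 and FZD1 were higher and LRP6 and FZD4 were lower, beside 18.3% of all genes in either direction. The 95% interval lay wholly within a 2-fold difference in either direction for 23 of the 28 genes, compared with 76.8% of all genes.

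Differences of any size exceeded counting error in 13 of the 28 genes, LRP6 included. The interval lay above 0 for 6 genes (AXIN2, FZD1, TCF7L2, ROR1, FRZB and CTNNB1), whereas 28.6% of all genes lay above 0. It lay below 0 for 7 genes (LRP6, FZD4, CSNK1G1, CSNK1E, APC, DKK3 and AXIN1), against 15.3% of all genes. The split over all genes depended strongly on the scaling, since median ratio scaling placed 19.9% of them above 0 and 21.3% below 0. Under that scaling 5 Wnt genes were above 0, CTNNB1 no longer among them, and 8 were below 0, with LRP5 added. FZD4 then joined LRP6 past the 2-fold limit, where 3.97% of all genes were at least 2-fold lower and 2.56% at least 2-fold higher. In a bulk sample, fewer cells of a type and less RNA per cell cannot be told apart, and this holds for all of these differences.

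**Figure D1:**
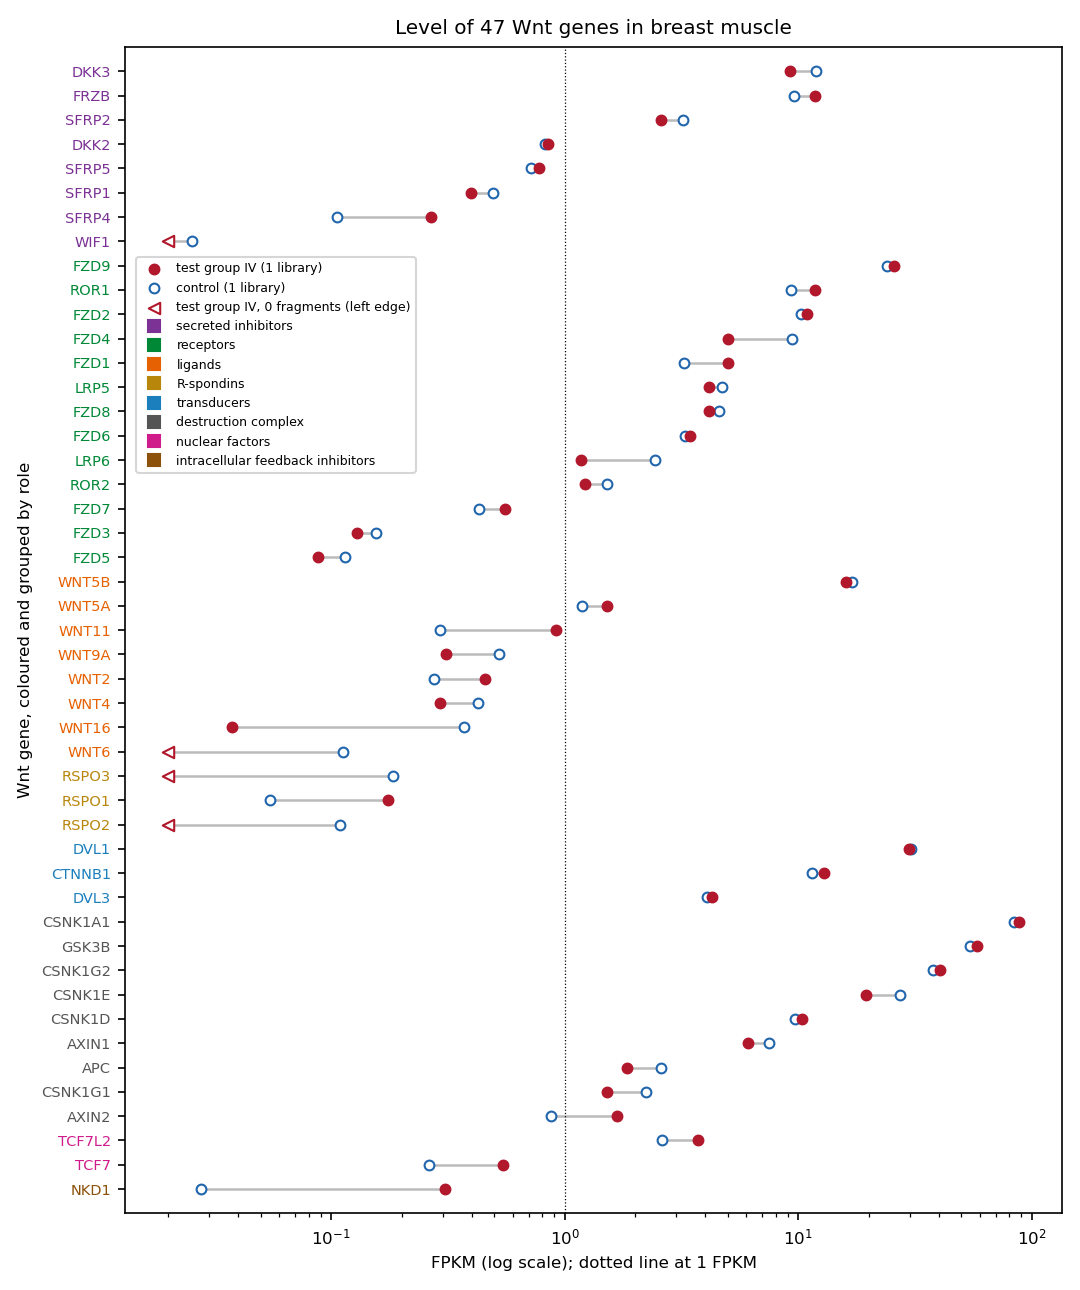
FPKM (log axis) of the 47 Wnt genes in the library of test group IV (filled red) and of the control group (open blue), grouped by role, with 1 library per group. Levels reach from under 0.1 FPKM to 88.6 FPKM for CSNK1A1, and the longest lines between the libraries belong to genes under 1 FPKM, which rest on few fragments.

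Secreted inhibitors were represented by 8 genes, of which 3 reached 1 FPKM. FRZB, a secreted Frizzled-related protein that holds Wnts away from their receptors, is found on chromosome 7 (2312660 to 2328060, build Galgal5, as all positions here). Its FPKM was 11.8 in test group IV and 9.60 in the control group, from 586 and 437 fragments, and its log2 ratio was 0.30 (95% interval from 0.12 to 0.48). FRZB was thus higher in test group IV by more than counting error. DKK3, a divergent member of the Dickkopf family on chromosome 5 from 8138651 to 8160893, had an FPKM of 9.20 in test group IV and 12.0 in the control group. It had 253 and 302 fragments, and the log2 ratio was -0.38 (95% interval from -0.63 to -0.13). DKK3 was placed among the inhibitors by its family name, and whether it limits Wnt signals was not tested. In FPKM, FRZB and DKK3 thus changed places as the most abundant gene of this group. FRZB was first in test group IV and DKK3 was first in the control group. By fragments FRZB was first in both libraries, so the change of places rests on the division by transcript length.

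SFRP2, another Frizzled-related protein that is typical of connective tissue cells, took rank 3 in both libraries. Its FPKM was 2.58 in test group IV and 3.21 in the control group, and the interval of its log2 ratio, from -0.82 to 0.19, included 0. The other 5 inhibitors were under 1 FPKM in each library. DKK2, which blocks LRP co-receptors, had 9 fragments in test group IV and 8 in the control group, and SFRP5 had 13 and 11. SFRP1 was at 0.395 and 0.494 FPKM, with an interval that reached from -0.96 to 0.31. For SFRP4, 11 fragments were counted in test group IV and 4 in the control group. This is a 2.52-fold higher FPKM, but its interval on the log2 scale was from -0.42 to 3.44, so no difference was detectable at this depth. WIF1, which binds Wnt ligands, had 0 fragments in test group IV and 1 in the control group, and the 3 fragments taken as the detection limit correspond to 0.0695 FPKM of this gene in test group IV.

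Receptors and co-receptors were represented by 13 genes, and 10 of them reached 1 FPKM. Of these 10, test group IV had the higher value for 5 and the lower value for 5, with a median log2 ratio of -0.03. By FPKM, FZD9 was the most abundant receptor in both libraries, at 25.7 in test group IV and 24.0 in the control group, whereas ROR1 had the most fragments in both. The interval of the log2 ratio of FZD9 was from -0.05 to 0.25. FZD2 was at 10.8 and 10.2 FPKM, and its interval included 0 as well. FZD9 and FZD2 therefore differed by less than counting error.

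The largest difference among the 28 genes was that of LRP6, a co-receptor needed for signalling through β-catenin. LRP6 lies on chromosome 1 from 71750243 to 71874216 and had 88 fragments in test group IV and 167 in the control group. Its FPKM was 1.17 against 2.43, a log2 ratio of -1.05 (95% interval from -1.44 to -0.67). The level in test group IV was thus 2.07-fold lower, and the interval reached to both sides of 2-fold. LRP5, the related co-receptor on chromosome 5, differed less. It was at 4.13 FPKM in test group IV and 4.73 FPKM in the control group, with an interval from -0.42 to 0.04.

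FZD4, a receptor that also binds the ligand norrin and is known from blood vessels of mammals, had the next lowest ratio. On chromosome 1 from 188780367 to 188784802, it had 270 fragments in test group IV and 466 in the control group. The FPKM values were 5.02 and 9.44, with a log2 ratio of -0.91 (95% interval from -1.13 to -0.69). The level was thus 1.88-fold lower, just inside the 2-fold limit that LRP6 passed. Of 7 endothelial markers, 6 were found and none of them was at 0 fragments, and their summed FPKM was 56.0 in test group IV and 55.3 in the control group. By direction, 4 of the 6 were higher in test group IV and 2 were lower. One of the lower genes, TEK, was at 5.75 and 6.88 FPKM, with an interval below 0. The smooth muscle and pericyte markers, by contrast, summed to 131 and 167 FPKM, with 5 of the 5 found genes lower in test group IV and none at 0 fragments. The part of these cells in the FZD4 value was not tested.

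Higher values in test group IV were found for FZD1 and ROR1. FZD1, on chromosome 2 from 22162541 to 22164687, had 122 fragments (4.98 FPKM) in test group IV and 73 fragments (3.25 FPKM) in the control group. Its log2 ratio was 0.62 (95% interval from 0.19 to 1.06), which gave FZD1 rank 5 among the receptors in test group IV and rank 8 in the control group. ROR1 is a receptor with a tyrosine kinase-like domain that binds WNT5A, and it lies on chromosome 8 from 27993878 to 28122891. For ROR1, 949 fragments (11.8 FPKM) and 691 fragments (9.35 FPKM) were counted, a log2 ratio of 0.33 (95% interval from 0.19 to 0.48). ROR2, its relative on chromosome Z, was at 1.23 and 1.52 FPKM, with an interval from -0.89 to 0.26 that included 0 and overlapped that of ROR1.

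The remaining receptors differed by less than counting error. FZD8 had 4.15 FPKM in test group IV and 4.56 FPKM in the control group, and FZD6 had 3.43 and 3.27. FZD7, a receptor of mouse satellite cells, was at 0.557 and 0.427 FPKM. FZD3 and FZD5 were close to the detection limit, with 10 and 5 fragments in test group IV and 11 and 6 in the control group.

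When inhibitors and receptors were set apart, neither sum differed much between the libraries. The 8 secreted inhibitors summed to 25.9 FPKM in test group IV and 26.9 FPKM in the control group, and the 13 receptors summed to 73.2 and 73.5 FPKM. The ratio of the inhibitor sum to the receptor sum was 0.353 in test group IV and 0.367 in the control group. The near equality of the sums hides opposite differences of single genes. FRZB made up 45.6% of the inhibitor FPKM in test group IV and 35.6% in the control group, while DKK3 made up 35.5% and 44.4%. Among the receptors, FZD4 took 6.85% in test group IV and 12.8% in the control group, ROR1 took 16.1% and 12.7%, and FZD9 took 35.1% and 32.7%.

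**Figure D2:**
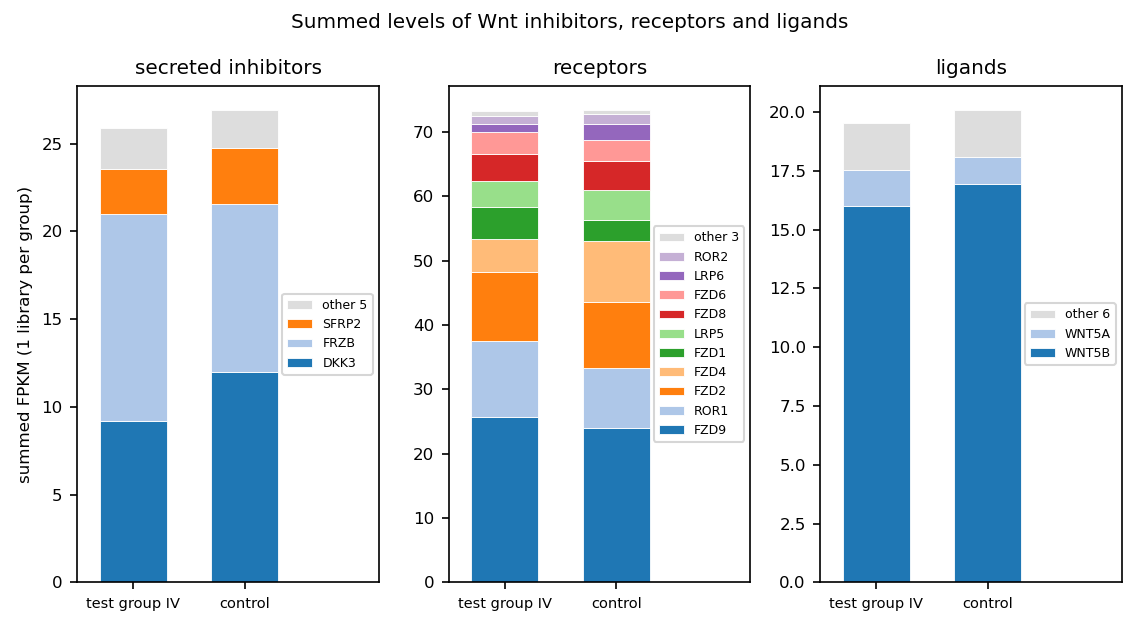
Summed FPKM of the secreted inhibitors, the receptors and the ligands in the library of test group IV (left bar) and of the control group (right bar), with genes of at least 1 FPKM drawn apart. The totals are close (25.9 and 26.9, 73.2 and 73.5, 19.5 and 20.1 FPKM), whereas the shares of FRZB, DKK3 and FZD4 differ between the bars.

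Of the 8 listed ligand genes, WNT5B supplied most of the message. WNT5B, which signals mainly without β-catenin, lies on chromosome 1 from 60973501 to 60989342 and took 82.0% of the summed ligand FPKM in test group IV and 84.2% in the control group. It had 254 fragments (16.0 FPKM) in test group IV and 246 fragments (16.9 FPKM) in the control group. The interval of its log2 ratio was from -0.34 to 0.18, so that the leading ligand did not differ beyond counting error. WNT5A, a close relative and the best known ligand of ROR1 and ROR2, was second, with 1.51 FPKM in test group IV and 1.19 FPKM in the control group. Its interval, from -0.30 to 1.01, included 0 and a 2-fold increase.

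The other 6 ligands stayed under 1 FPKM. WNT11, on chromosome 1 from 193938735 to 193964975, acts on cell movement and polarity and on the direction of muscle fibre growth in the chick embryo. It had 24 fragments (0.916 FPKM) in test group IV and 7 fragments (0.291 FPKM) in the control group, a log2 ratio of 1.65 (95% interval from 0.39 to 3.11). WNT11 had rank 3 among the ligands in test group IV and rank 6 in the control group. WNT16, also on chromosome 1, went the opposite way, with 1 fragment in test group IV and 9 in the control group, and its log2 ratio of -3.29 had an interval from -8.75 to -0.44. A ratio that rests on 1 fragment is poorly determined, and the 99% interval of WNT16 reached 0.13.

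WNT9A, which is known from the formation of joints, had 11 fragments in test group IV and 17 in the control group. WNT2 had 9 and 5, and WNT4 had 6 and 8. All 3 intervals included 0. WNT6 had 0 fragments in test group IV and 2 in the control group, both at or under the detection limit of 3 fragments. Summed over the ligands other than WNT5B, the FPKM was 3.52 in test group IV and 3.18 in the control group.

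R-spondins are secreted proteins that strengthen Wnt signals by keeping Frizzled receptors on the cell surface, and their messages were close to absent at this depth. RSPO1 had 7 fragments in test group IV and 2 in the control group, with an interval of the log2 ratio from -0.71 to 4.99. RSPO2 had 0 and 3 fragments, and RSPO3 had 0 and 2. The detection limit of 3 fragments corresponds to 0.253 FPKM for RSPO3 in test group IV, and no ratio is given for either gene. The receptor LGR4, through which R-spondins act, was at 2.38 FPKM in test group IV and 2.33 FPKM in the control group.

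Inside the cell, the messages of the transducers were among the most even of the set. DVL1, the more abundant of the listed Dishevelled genes, had 29.9 FPKM in test group IV and 30.5 FPKM in the control group, from 915 and 857 fragments. DVL3 had 4.26 and 4.05 FPKM, and the intervals of both genes included 0. CTNNB1 encodes β-catenin, which also links cadherins to the cytoskeleton, and lies on chromosome 2 from 43601202 to 43622660. It had 1062 fragments (12.8 FPKM) in test group IV and 869 fragments (11.5 FPKM) in the control group, and its log2 ratio was 0.16 (95% interval from 0.03 to 0.30). This small difference did not stay above 0 at a 99% interval, which began at -0.01, or after median ratio scaling.

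The genes grouped here as destruction complex include every listed gene with a CSNK1 symbol, and not each of these kinases need act in the complex. Of the 9 genes of this group, 4 had an interval that included 0, 4 had an interval below 0 and AXIN2 had an interval above 0. CSNK1A1, the casein kinase that starts the phosphorylation of β-catenin, was the most abundant Wnt gene of both libraries, at 88.6 FPKM in test group IV and 84.2 FPKM in the control group. GSK3B, the kinase that completes it and also acts in glycogen metabolism, was at 58.2 and 54.3 FPKM. CSNK1G2 was at 40.5 and 37.6 FPKM, and CSNK1D was at 10.4 and 9.70 FPKM. The intervals of these 4 kinase genes included 0, and the highest of their upper bounds was 0.26 on the log2 scale.

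Among the lower values, CSNK1E had the most fragments of the kinases. Its product phosphorylates Dishevelled and also acts in the circadian clock, and the gene lies on chromosome 1 from 50962355 to 50982806. CSNK1E had 513 fragments (19.5 FPKM) in test group IV and 659 fragments (27.3 FPKM) in the control group, a log2 ratio of -0.49 (95% interval from -0.66 to -0.32). Its sequence is close to that of CSNK1D, and how reads shared by the pair were counted is not given in the sources used here, so that the split between them is uncertain. APC, the large scaffold that holds β-catenin in the complex, lies on chromosome Z from 46027195 to 46082742. It had 545 and 696 fragments, with FPKM values of 1.85 and 2.58 and a log2 ratio of -0.48 (95% interval from -0.64 to -0.31). APC had the longest transcript of the set, 20.5 kb as implied by its count and FPKM, so a low FPKM here still rests on many fragments. The paper does not give the sex of the birds. Its part in the values of chromosome Z genes, such as APC and ROR2, was not tested.

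AXIN1, the scaffold on chromosome 14 from 12212172 to 12280905, was also lower. It had 384 fragments (6.07 FPKM) in test group IV and 436 fragments (7.51 FPKM) in the control group, a log2 ratio of -0.31 (95% interval from -0.51 to -0.11). CSNK1G1, a membrane-bound casein kinase, had 78 and 105 fragments. Its log2 ratio of -0.55 had a 95% interval from -0.995 to -0.12, and the 99% interval reached 0.01. Over all 9 genes of the group, test group IV had the higher value for 5 and the lower value for 4. The summed FPKM was 228 in test group IV and 226 in the control group.

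**Figure D3:**
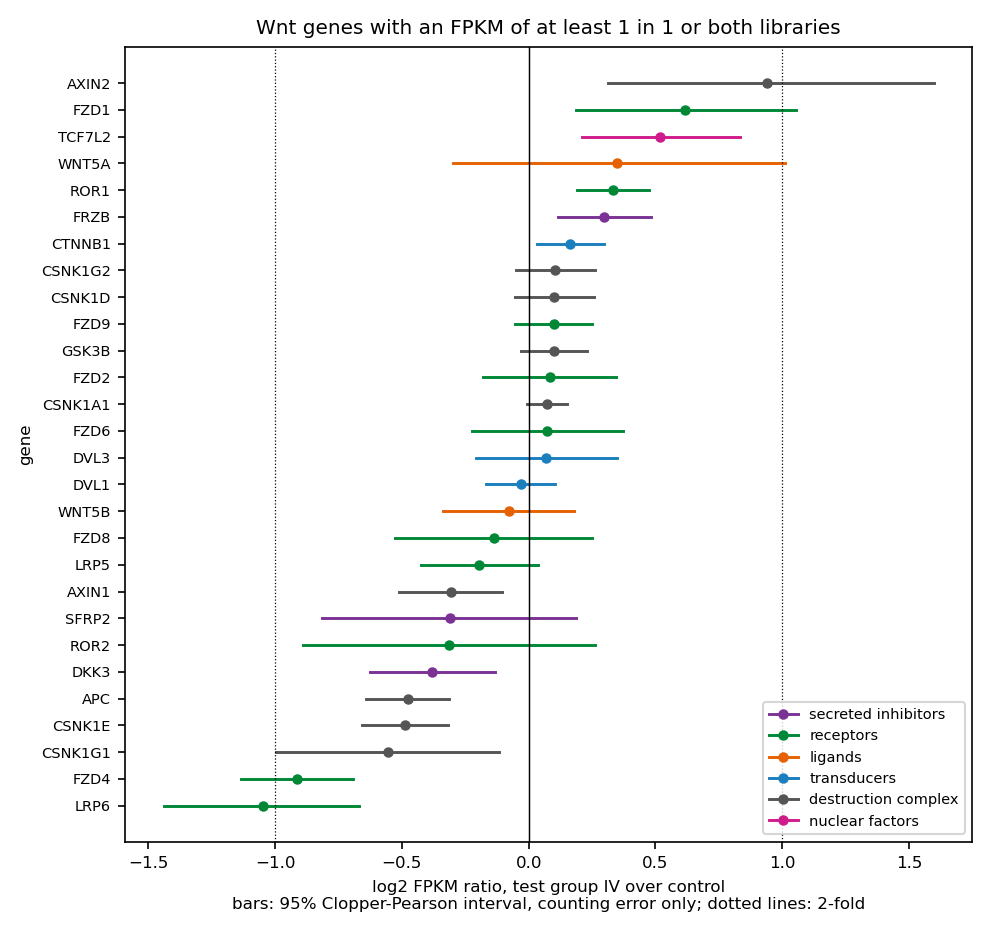
Log2 FPKM ratio of test group IV over the control group for the 28 Wnt genes that reached 1 FPKM in 1 or both libraries, in order of the ratio, with 95% Clopper-Pearson intervals for counting error (bars) and 2-fold limits (dotted lines). The intervals of 6 genes lie above 0 and those of 7 genes below 0, with AXIN2 (0.94) at the top and LRP6 (-1.05) at the bottom.

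AXIN2 stood opposite to AXIN1. AXIN2 encodes a second Axin that is switched on by β-catenin and slows the pathway in return, and it is widely read as a target gene of Wnt signals. It lies on chromosome 18 from 7687437 to 7708690 and had 67 fragments (1.68 FPKM) in test group IV and 32 fragments (0.873 FPKM) in the control group. The log2 ratio was 0.94 (95% interval from 0.31 to 1.60), the highest of the 28 genes, and it was 0.85 after median ratio scaling. NKD1, on chromosome 11 from 6364520 to 6468658, binds Dishevelled and is also switched on by the pathway. NKD1 had 12 fragments (0.305 FPKM) in test group IV and 1 fragment (0.0278 FPKM) in the control group. Its log2 ratio of 3.46 had a 95% interval from 0.70 to 8.88. It shrank to 0.35 once 1 FPKM was added to both values.

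The nuclear factors were represented by TCF7L2 and TCF7, and TCF7L2 differed by more than counting error. TCF7L2, on chromosome 6 from 27067493 to 27239223, is the TCF member expressed in many adult tissues, the connective tissue of mouse muscle included. It had 222 fragments (3.73 FPKM) in test group IV and 142 fragments (2.60 FPKM) in the control group, with a log2 ratio of 0.52 (95% interval from 0.21 to 0.83). Of 9 fibroblast markers, 7 were found, none of them at 0 fragments. They summed to 427 FPKM in test group IV and 376 FPKM in the control group. Their directions were mixed, with 5 rising and 2 falling. LUM fell to 27.4 from 34.5 FPKM in the control group, with an interval below 0. MFAP5 fell to 30.8 from 34.6 FPKM, with an interval that included 0. The part of fibroblasts in the TCF7L2 value was not tested. TCF7 had 9 and 4 fragments, a 2.06-fold difference whose interval, from -0.80 to 3.20, included 0.

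Most differences past 2-fold were those of the 19 Wnt genes under 1 FPKM in both libraries, which rest on few fragments. Test group IV exceeded the control group by 2-fold or more in 5 of them (SFRP4, WNT11, RSPO1, TCF7 and NKD1). It was counted as lower by as much in 5 (WIF1, WNT16, WNT6, RSPO3 and RSPO2). Of these 5, all but WNT16 were counted only because their FPKM was 0 in test group IV. They had 1 to 3 fragments in the control group, at or under the detection limit, so no fall was measurable. All genes were counted by the same rule. Among all 4063 genes under 1 FPKM, 12.4% lay this far above the control group and 30.3% this far below it. Counted over all 47 Wnt genes, 5 were past 2-fold upwards and 6 downwards, against 5.61% and 10.6% of the 15073 listed genes. Where at least 10 fragments over both libraries were asked for, these numbers were 4 and 2, against 4.82% and 4.09%. Of the 19 Wnt genes, 4 had no fragment in test group IV, as had 18.7% of all genes at these levels. The interval lay above 0 for WNT11 and NKD1 and below 0 for WNT16, and 4.04% and 3.96% of all genes under 1 FPKM did so. The median number of fragments of the 19 genes was 14 over both libraries.

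**Figure D4:**
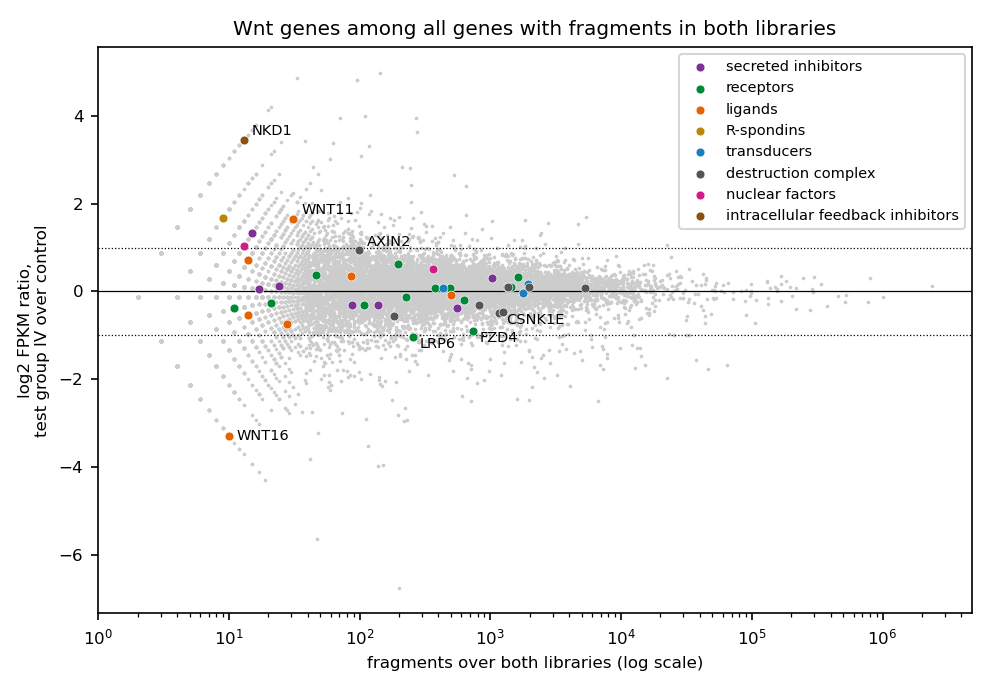
Log2 FPKM ratio of test group IV over the control group against the number of fragments over both libraries (log axis) for genes with fragments in both libraries, in grey, with Wnt genes coloured by role and 2-fold limits dotted. Wnt genes beyond 2-fold lie at low counts, such as NKD1 with 12 and 1 fragments, apart from LRP6 with 88 and 167.

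Other genes of the pathway were taken from a list of 76 symbols, of which 58 were found and 50 reached 1 FPKM. A difference of 2-fold or more was found for 0 of the 50, where 6.40% of all genes passed 2-fold in either direction. The median log2 ratio of the 50 was 0.07. The interval lay above 0 for 17 of the 50, against 28.6% of all genes, and below 0 for 7, against 15.3%. After median ratio scaling these numbers were 10 and 10, against 19.9% and 21.3%. Some genes that act beside the ligands and receptors are named here after their values were seen. WLS, the carrier that brings Wnt proteins to the cell surface, was at 5.08 FPKM in test group IV and 6.94 FPKM in the control group (log2 ratio -0.45, 95% interval from -0.69 to -0.21). NOTUM, an enzyme that inactivates secreted Wnts, was at 7.61 and 6.13 FPKM, with an interval from 0.03 to 0.60. KREMEN1, a receptor of Dickkopf proteins, was at 4.23 and 3.21 FPKM and RYK, another Wnt receptor, was at 10.3 and 9.08 FPKM, with intervals that included 0. The widest differences among the 50 genes were those of TLE3, a co-repressor that TCF factors recruit, at 2.02 and 1.17 FPKM, and of DAAM2, a formin that works with Dishevelled, at 1.79 and 2.99 FPKM.

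Genes commonly used as targets of β-catenin were taken from a list of 38 symbols, of which 26 were found and 16 reached 1 FPKM. The list shares AXIN2, NKD1 and TCF7 with the Wnt genes above, and APCDD1, LGR5, NOTUM and RNF43 with the other pathway genes. NOTUM is counted in both lists among the intervals above 0 of the values as deposited, so the lists are not independent. Of the 16, DCT was at least 2-fold higher and 0 were at least 2-fold lower, against 3.10% and 3.31% of all genes. The median log2 ratio of the 16 was 0.27, beside 0.09 for all genes under the same filter. The summed FPKM of the 26 genes went the other way, at 283 in test group IV and 343 in the control group. JUN was the largest single value in both sums, and its fall was larger than that of the sums. By direction, 18 of the 26 genes were higher in test group IV and 8 were lower. Among all 15073 listed genes, 8248 were higher and 6825 were lower. DCT, an enzyme of melanin synthesis that is also a melanocyte marker, had 138 fragments (3.27 FPKM) in test group IV and 4 fragments (0.103 FPKM) in the control group. Its log2 ratio was 4.98 (95% interval from 3.59 to 6.88). The paper lists DCT among the genes that differed between these same libraries, so its direction was known beforehand. The interval lay above 0 for 7 of the 16 genes, against 28.6% of all genes, and below 0 for 2, against 15.3%. After median ratio scaling these numbers were 6 and 2, against 19.9% and 21.3%. The 2 lower genes were JUN, at 129 FPKM in test group IV and 210 FPKM in the control group, and MYC, at 12.5 and 20.7 FPKM. Among the target genes under 1 FPKM, APCDD1 was lower and NKD1, as given above, was higher by more than counting error. APCDD1 had 31 fragments in test group IV and 52 in the control group, with an interval from -1.56 to -0.20. MITF, which the paper names in its melanin network, was at 32.9 FPKM in test group IV and 21.1 FPKM in the control group. Its interval was from 0.53 to 0.75. TBX3 was at 6.50 and 4.63 FPKM and FST, an antagonist of activin and myostatin, at 5.95 and 4.10 FPKM, with intervals above 0. The part of melanocytes in the DCT and MITF values was not tested. The direction of the target list therefore differs between its members.

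Markers of the tissue and of other cell types differed between the libraries as well. The 4 myofibre markers found, of 9, summed to 26245 FPKM in test group IV and 25248 FPKM in the control group, while of 7 keratinocyte markers TP63 was found, at 4.81 and 5.62 FPKM. All 7 melanocyte markers found, of 10, were higher in test group IV, and their sum was 12.7 FPKM against 1.61 FPKM in the control group. The paper lists DCT, EDNRB2, GPNMB, MLPH, PMEL and TRPM1 among pigmentation genes that differed between these same libraries. Their direction was therefore known beforehand and is no separate result. SOX10, which is not in that list of the paper, was at 1.13 and 0.938 FPKM, with an interval that included 0. Satellite cell markers (4 of 5 found) summed to 116 and 79.4 FPKM, mostly from MYOD1 at 89.5 and 54.4 FPKM. Of these 4 genes, 3 were higher in test group IV and CDH15 was lower, with an interval below 0. Tendon cell markers (7 of 7 found, 6 higher and 1 lower) summed to 98.8 and 77.3 FPKM. Leukocyte markers (5 of 5 found, 4 higher and 1 lower) summed to 249 and 191 FPKM, mostly from CD74 at 207 and 154 FPKM. Lower sums in test group IV were those of adipocyte markers (4 of 5 found, all 4 lower), at 44.5 and 69.5 FPKM. Schwann cell markers (3 of 4 found, 1 higher and 2 lower) also had a lower sum, at 16.2 and 25.2 FPKM. Red cell markers (2 of 4 found) were at 23.0 and 23.2 FPKM. In test group IV, 1 tendon cell and 1 adipocyte marker had no fragment. The part of these cell types in the Wnt values was not tested.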

How the data were processed

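Breast muscle RNA was sequenced as 1 library for test group IV and 1 for the control group, each a pool of 3 birds. According to the methods of the study and the submitters' processing notes, reads were trimmed (Seqtk) and aligned to Galgal5 (TopHat 2.0.9) by the authors, who then counted fragments per gene (StringTie 1.3.0). The notes also name FastQC and HISAT2. The deposited values are a whole-number fragment count and an FPKM value per gene, for which the authors used a Perl script. Their methods also name TMM normalisation. In the files, FPKM per fragment differed between the libraries by the same factor of 1.09 at every gene compared. A factor of that size follows from the summed counts alone, and a trimmed mean factor of 1.05 remained between the libraries. The deposited FPKM values thus appear to be scaled for depth and not by TMM. Whether counting used strand, and how reads shared between close paralogs such as CSNK1D and CSNK1E were counted, is not given in the sources used here.

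FPKM values were used as deposited. Wnt genes were found by symbol and grouped by role, and the groups, lists and genes were chosen with earlier results of these data known. By rule, Wnt genes past 2-fold, those whose interval left out 0, those at 0 fragments, the most abundant of each role, all ligands, receptors and inhibitors of at least 1 FPKM, and genes of the pathway and target lists past 2-fold at 1 FPKM or more were named. The other Wnt genes and list genes named were chosen after their values were seen. Test group IV's share of a gene's fragments was given a Clopper-Pearson 95% interval, converted to a ratio with the relative depth (1.09). Intervals and limits cover counting error only. Copies made by PCR were counted as fragments, so the intervals may be too narrow even for counting error. Medians used 0.1 added to each FPKM. Because 1 library per group gives no dispersion, no count model was fitted. Alternatives were median ratio scaling (1.06), trimmed mean scaling (1.05), totals without mitochondrial genes, 0.01, 0.1 or 1 added, other filters, a 1.5-fold limit and a 99% interval. The calculations used scipy 1.17.1, pandas 2.3.3, numpy 2.4.6 and, for plots, matplotlib 3.10.9 under Python 3.11.15, and were tested on simulated data.

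RefSeq gene symbols of the assembly GRCg7b were used for names only, and 45 of the 47 Wnt genes matched. Coordinates are those deposited with the counts. Skin is the tissue in the title of the series, but breast muscle is the tissue in the labels of both libraries and in the paper.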

Additional observations from a re-analysis of the deposited data

How the results depend on the processing

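No paired analysis was possible because each group is 1 library, and no library could be left out. The number of Wnt genes at least 2-fold higher was 0 under every scaling and added constant tried, 5 with no filter on low values, 4 with at least 10 fragments over both libraries, and 2 at a limit of 1.5-fold. The number at least 2-fold lower, 1 as given above, was 2 after median ratio scaling (FZD4 with LRP6), 0 with 1 FPKM added or, in a check chosen after the data were seen, with 0.1 FPKM added, 6 with no filter, 2 with at least 10 fragments and 2 at a limit of 1.5-fold. Genes with an interval above 0 numbered 5 to 8 and those below 0 numbered 6 to 8 over the alternatives. With no filter and with at least 10 fragments, the median log2 ratio was -0.11 and 0.040 for the secreted inhibitors, against -0.30 for their 3 genes over 1 FPKM, and -0.13 under both filters for the receptors, against -0.03. These filters admit genes with few fragments. Counted in fragments in place of FPKM, the share of DKK3 among the inhibitors in test group IV was 25.9% in place of 35.5%. That of FZD9 among the receptors was 24.3% in place of 35.1%. The summed inhibitor level depended on single genes, a check chosen after the data were seen. Its log2 ratio was -0.06 with all 8 genes, 0.16 without DKK3 and -0.30 without FRZB, and that of the ligands was -0.04 with all 8 genes and 0.15 without WNT5B. The log2 ratios of the 16 single genes whose interval left out 0 kept their sign in all 80 recalculations. No other outcome was possible, because an added constant cannot change a sign. The scalings shifted log2 ratios by 0.09 at most, less than the smallest ratio (0.16, CTNNB1). With 1 FPKM added, 3 of these genes left their interval, LRP6 (-0.66), WNT16 (-0.40) and NKD1 (0.35). Depth limits the 19 genes under 1 FPKM most, and the spread between pools of the same diet is unknown.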
